A study of Homo sapiens with 2 samples.

Results

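The fatty acid desaturases and elongases FADS1, FADS2, FADS3, SCD, SCD5, ELOVL1, ELOVL2, ELOVL5, ELOVL6 and ELOVL7 were followed in PLC8024 hepatocellular carcinoma cells with lentiviral miR-130b and with an empty lentiviral vector. These 10 genes were matched by symbol to the probe sets that name a single gene, and 8 of the 10 were found among the 19775 genes so covered. The group was selected on the FADS2 difference between these same 2 arrays, already known, with its family added by name. FADS2, FADS3, SCD, SCD5, ELOVL2, ELOVL5, ELOVL6 and ELOVL7 had 22 probe sets of their own. FADS1 and ELOVL1 had 3 and 2 probe sets, all of which also carried the symbol of a microRNA gene, MIR1908 or MIR6734. Those probe sets name no single gene, so FADS1 and ELOVL1 were not analysed here.

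PLC8024 is an established liver cancer line, and both cultures came from its CD133-negative fraction, obtained by flow sorting. PROM1 encodes CD133, by which liver tumour cells with stem-like properties are often sorted. The treated culture carried miR-130b and the control culture the empty vector. Whether either culture was a pool or a clone, which promoter drove the microRNA, and the time from transduction to harvest are not stated in the labels, and 1 label names the miR-130b treatment a transfection. Each condition had 1 array, so there is no replicate error and no difference was tested. Whatever else separates the cultures cannot be told apart from miR-130b.

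Desaturases place double bonds in fatty acyl chains and elongases lengthen these chains in the endoplasmic reticulum. SCD and SCD5 make monounsaturated from saturated acyl-CoA, while FADS2 and FADS1 act in turn with ELOVL5 and ELOVL2 to build the long polyunsaturated fatty acids from the essential dietary ones. In liver these genes respond to SREBP-1c and to nuclear receptors of fatty acids and oxysterols. FADS2 can also act on palmitate, which yields sapienate, a monounsaturated acid formed without SCD.

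The microRNA is shown first, because it is what the labels say was overexpressed in the treated culture. RefSeq lists 2 mature arms for the gene MIR130B (GRCh38.p14), and the labels do not say which arm accumulated. Bases 2 to 8 of each arm, its seed, are in capitals. The arms lie at chr22:21653354-21653375 and chr22:21653316-21653336 on the plus strand. The level of neither arm was analysed here.
hsa-miR-130b-3p: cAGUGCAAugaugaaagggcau
hsa-miR-130b-5p: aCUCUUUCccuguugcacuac

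Of the 8 genes with their own probe sets, FADS2 was lower in the miR-130b array by more than 1.5-fold and the other 7 lay within 1.5-fold. FADS2, which opens the polyunsaturated pathway, had a deposited log2 value of 6.44 with miR-130b, against 8.19 with the empty vector. The difference of -1.75 on the log2 scale corresponds to a 3.37-fold lower value. The next member in order was FADS3 at -0.39, on the other side of the 1.5-fold line, which lies at 0.58 on the log2 scale. A gene counted as measured where at least 1 array reached 4.88, the median of all non-control values, and of its measured probe sets the one with the highest mean stood for it. No member was higher by 1.5-fold.

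Over the whole table, 2.68% of 13260 measured genes were at least 1.5-fold lower with miR-130b, 1.52% were at least 2-fold lower and 0.294% were at least 1.5-fold higher. FADS2 was the 87th lowest of these differences. Since FADS2 was picked for this contrast, its place in that order describes the choice. The median difference of the 8 members was 0.20, and that of all measured genes was 0.03. With measured probe sets averaged per gene, the member median was 0.08. Over the 17 measured member probe sets it was 0.05. No test was possible for any of these medians.

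**Figure D1:**
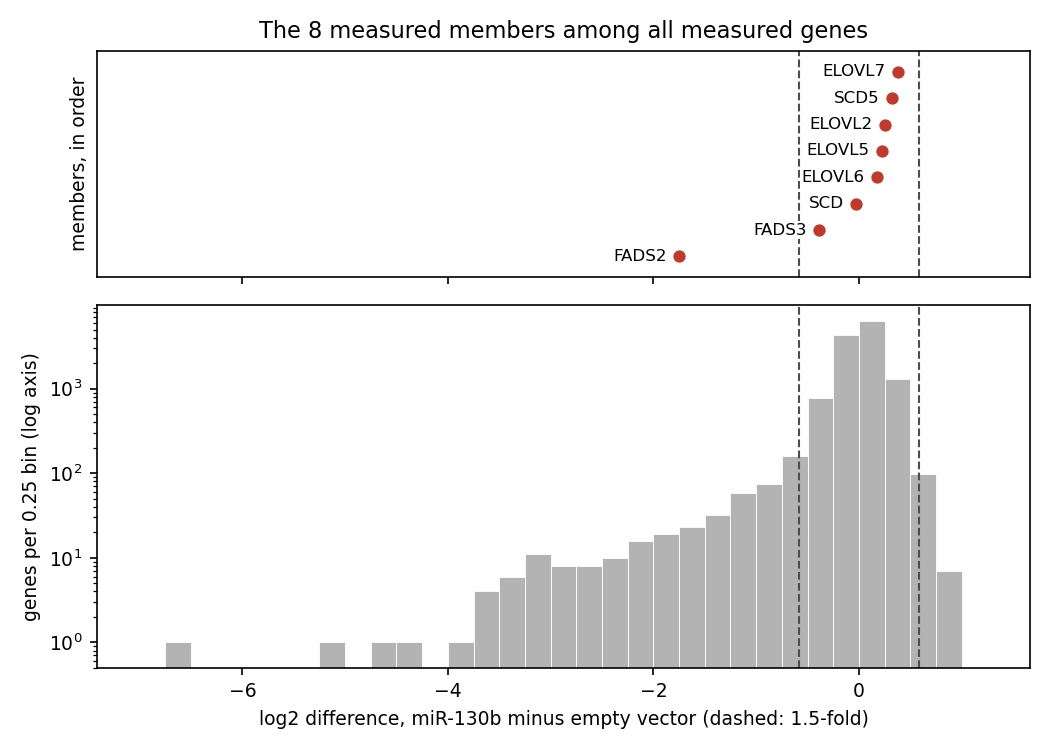
Log2 difference, miR-130b minus empty vector, of the 8 measured members (upper panel, 1 point per gene) and of all 13260 measured genes (lower panel, genes per bin on a log axis). FADS2 at -1.75 lies in the lower tail, and the other 7 members lie between the dashed lines that mark 1.5-fold.

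The FADS2 value rested on a single probe set. Probe set 202218_s_at, whose suffix marks probes that can match more than 1 transcript, stood above the floor in both arrays. The other FADS2 probe set, 243953_at, read 4.69 with miR-130b and 4.79 with the empty vector. It lay below the floor in both arrays, and its difference was -0.10. The mean over both probe sets was -0.93. RMA values keep a residual background that compresses differences near and below the floor. Whether that bears on 243953_at was not tested. When probe sets ending in _s_at or _x_at were left out, FADS2 had no measured probe set and 0 of 6 members were 1.5-fold lower. Of all genes in that setting, 263 of 10175 were.

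FADS3, a relative that introduces a double bond into sphingoid bases, was the other FADS gene measured. Its probe set 216080_s_at read 7.69 with miR-130b and 8.07 with the empty vector, a difference of -0.39. Its second probe set, 204257_at, read 7.45 and 7.72 in the same order, a difference of -0.27. Both FADS3 probe sets were thus lower with miR-130b, by more than 0.202 on the log2 scale. That value is the SD among probe sets of the same gene, pooled over genes, and culture-to-culture variation is not part of it.

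SCD, the main liver enzyme for monounsaturated acyl-CoA, gave no common direction. Its 2 probe sets with the highest means were lower with miR-130b: 200832_s_at read 12.42 against 12.44 with the empty vector, and 200831_s_at read 10.95 against 11.16. Its 2 others were higher: 211708_s_at read 9.11 with miR-130b against 8.88, and 211162_x_at read 8.63 against 8.43. The 4 differences ran from -0.21 to 0.23 with a mean of 0.05, and all 4 probe sets carry a suffix for probes that may match other transcripts.

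SCD5, a desaturase of the same activity known best from brain and pancreas, had 1 measured probe set. Probe set 220232_at read 6.07 with miR-130b and 5.75 with the empty vector, a difference of 0.32. The 3 remaining SCD5 probe sets lay below the floor in both arrays and differed by -0.16, 0.13 and -0.02. With all 4 averaged, the SCD5 difference was 0.07.

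**Figure D2:**
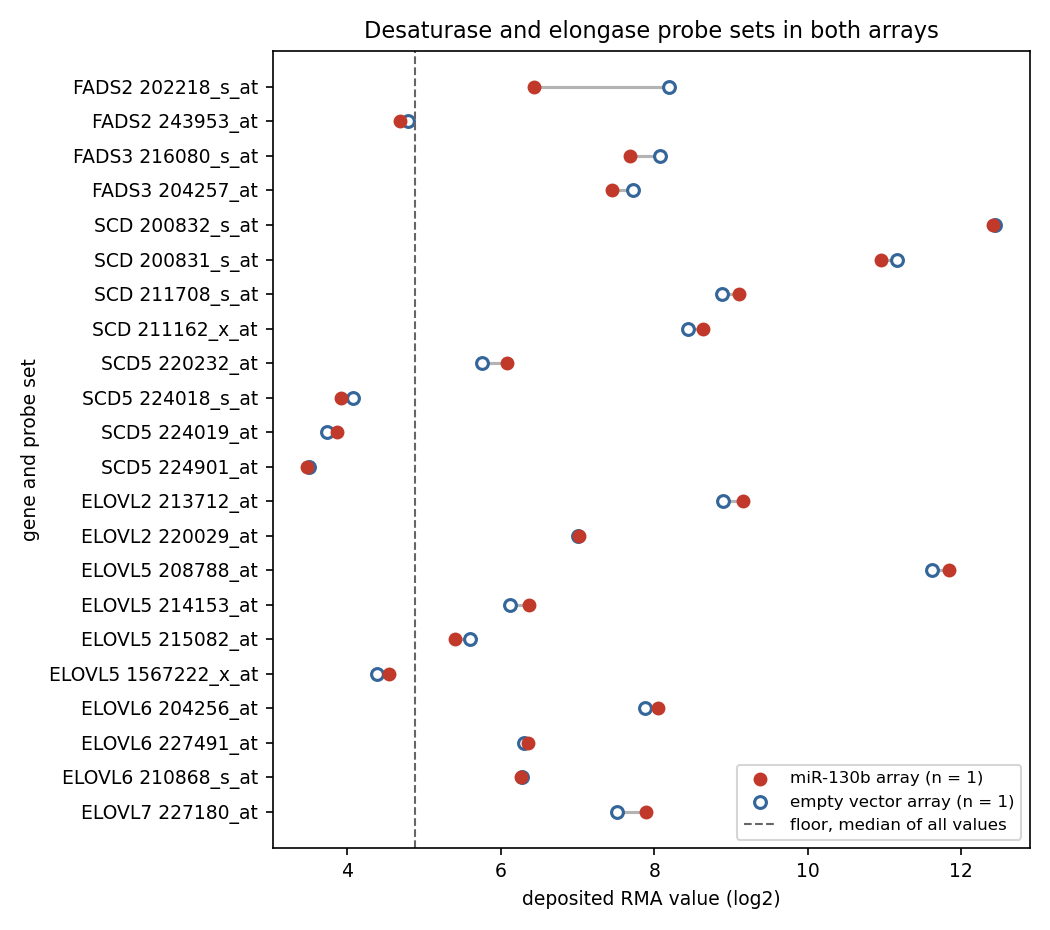
Deposited RMA value (log2) of each of the 22 member probe sets in the miR-130b array (filled) and the empty vector array (open), 1 array each, with the floor of 4.88 dashed. The points separate widely for FADS2 202218_s_at, at 6.44 with miR-130b and 8.19 with the empty vector, and lie close together elsewhere. Levels of different probe sets are not comparable with each other.

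The elongases lay on the other side of 0. All 4 that were measured had a positive difference in the probe set with the highest mean, from 0.17 to 0.38, against 56.1% of all measured genes with a positive difference. None reached 1.5-fold. Of the 4 measured desaturases, SCD5 alone had a positive difference.

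ELOVL7, which lengthens long saturated acyl-CoA, had the highest difference of the 8 members. Its single probe set read 7.89 with miR-130b and 7.51 with the empty vector, a difference of 0.38. ELOVL2, which acts late on polyunsaturated chains, read 9.15 with miR-130b and 8.90 with the empty vector in 213712_at, a difference of 0.25. In its other probe set, 220029_at, the values were 7.017 with miR-130b and 7.001 with the empty vector. The ELOVL2 difference was therefore seen in 1 of 2 probe sets.

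ELOVL5, the elongase that follows FADS2 in the polyunsaturated pathway, read 11.84 with miR-130b and 11.62 with the empty vector in 208788_at. Probe set 214153_at read 6.37 with miR-130b and 6.12 with the empty vector, while 215082_at read 5.40 and 5.60 in the same order. These 3 differences were 0.22, 0.24 and -0.20, so the measured probe sets disagreed in direction. The remaining probe set, 1567222_x_at, lay below the floor in both arrays and differed by 0.16.

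ELOVL6, which extends palmitate to stearate, read 8.05 with miR-130b and 7.87 with the empty vector in 204256_at, a difference of 0.17. Its 2 further probe sets differed by 0.05 in 227491_at and by -0.01 in 210868_s_at. Averaged over measured probe sets, the elongase differences were 0.13 for ELOVL2, 0.09 for ELOVL5, 0.07 for ELOVL6 and 0.38 for ELOVL7. The first 3 of these averages are smaller than the SD of 0.202 between probe sets of a gene.

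Counted by probe set, 17 of the 22 were measured and 5 were below the floor in both arrays. Of the 17, 16 lay within 1.5-fold, against 96.8% of all 23352 measured probe sets, and 1 was at least 1.5-fold lower, against 2.83%. The differences were positive in 10 and negative in 7. Of the 5 genes with at least 2 measured probe sets, 3 (SCD, ELOVL5 and ELOVL6) had probe sets of both signs.

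**Figure D3:**
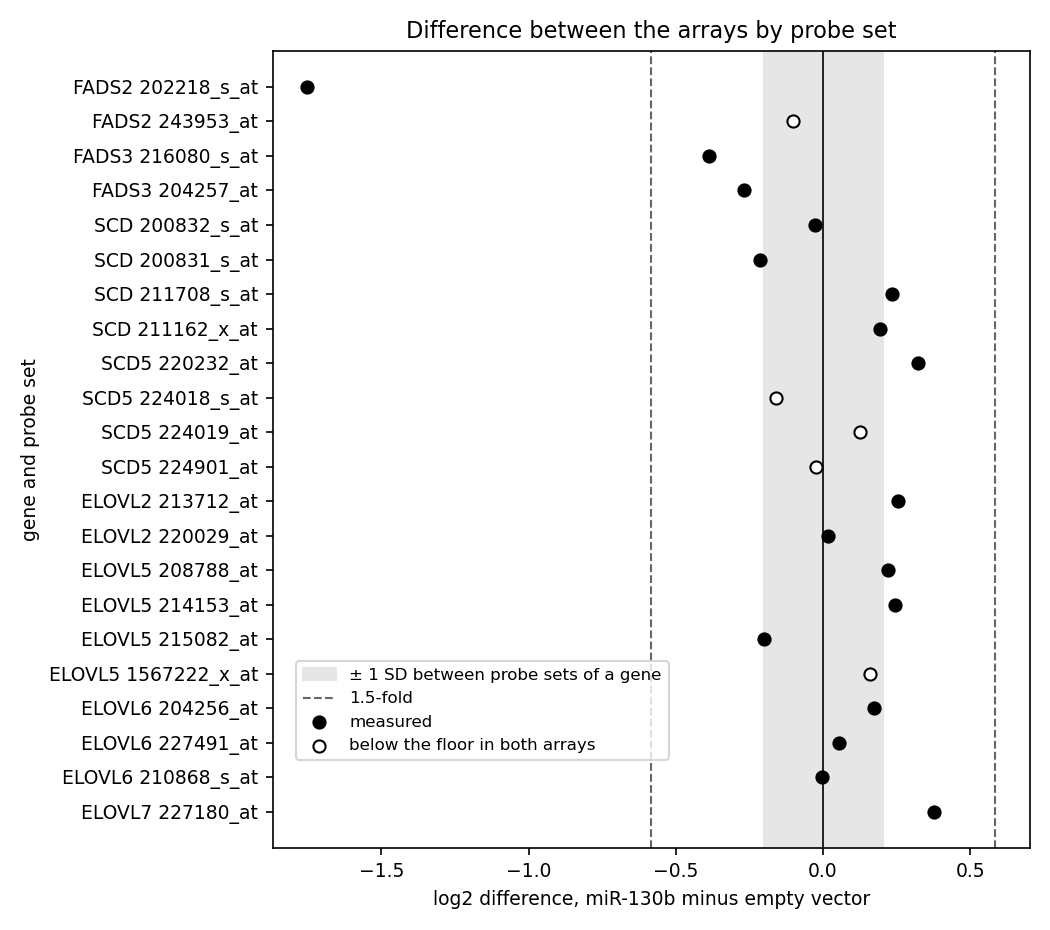
Log2 difference, miR-130b minus empty vector, of the 22 member probe sets (filled, measured; open, below the floor in both arrays). The grey band is 1 SD (0.202) between probe sets of a gene and the dashed lines mark 1.5-fold. FADS2 202218_s_at at -1.75 is the only point outside the dashed lines.

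Control probe sets for RNA integrity, the sort marker and liver markers differed between the same arrays. The 3' probe set of ACTB exceeded its 5' probe set by 1.27 on the log2 scale with miR-130b and by 0.96 with the empty vector, and for GAPDH the excess was 0.60 with miR-130b and 0.46 with the empty vector. PROM1, the marker the cells were sorted against, read 6.07 with miR-130b and 9.19 with the empty vector, above the floor in both. Of 9 measured hepatocyte and HCC markers of 10 listed, 3 (TTR, KRT8 and ALB) were lower by 1.5-fold or more with miR-130b. None was higher by as much. Of all measured genes, 2.68% were lower and 0.294% higher by the same rule. The mean log2 value of the 9 markers was 11.7 with miR-130b and 12.4 with the empty vector. The leukocyte markers PTPRC and CD3E lay below the floor in both arrays, as did VWF and ACTA2. LYZ, the only leukocyte marker of 5 measured, read 9.46 with miR-130b and 9.77 with the empty vector, and in its other measured probe set 4.04 with miR-130b and 5.76 with the empty vector, a difference of -1.72. The 4 of 6 endothelial and stromal markers that were measured had a mean of 6.54 with miR-130b and 7.21 with the empty vector, and by the probe set standing for each gene COL1A2 was beyond 1.5-fold, at 4.90 with miR-130b and 7.98 with the empty vector. COL1A1 differed by -0.08 in that probe set, and by -1.68, -0.88 and 0.38 in its other measured ones. Their part in the FADS2 difference was not tested. In a bulk array, fewer cells with a transcript and less transcript per cell cannot be told apart.

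Promoter sequence is printed for FADS2, the member beyond 1.5-fold, and for SCD, a lipogenic member whose probe sets stayed within 1.5-fold. RefSeq windows run from 250 bases before to 50 after a start (GRCh38.p14), and FADS2 has 2 starts on chromosome 11. The window shown belongs to the second, chr11:61816154-61816453 on the plus strand, and that of SCD is chr10:100346983-100347282 on the plus strand. Capitals mark the CCAAT box, searched as these letters, and the GC box, searched as GGGCGG, each on either strand. The GC boxes shown here are on the reverse strand.
FADS2: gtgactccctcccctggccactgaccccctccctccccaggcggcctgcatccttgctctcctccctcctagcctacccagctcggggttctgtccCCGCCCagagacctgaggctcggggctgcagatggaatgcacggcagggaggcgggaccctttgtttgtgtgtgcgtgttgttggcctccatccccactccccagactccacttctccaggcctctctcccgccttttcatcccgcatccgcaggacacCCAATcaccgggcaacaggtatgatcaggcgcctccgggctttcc
SCD: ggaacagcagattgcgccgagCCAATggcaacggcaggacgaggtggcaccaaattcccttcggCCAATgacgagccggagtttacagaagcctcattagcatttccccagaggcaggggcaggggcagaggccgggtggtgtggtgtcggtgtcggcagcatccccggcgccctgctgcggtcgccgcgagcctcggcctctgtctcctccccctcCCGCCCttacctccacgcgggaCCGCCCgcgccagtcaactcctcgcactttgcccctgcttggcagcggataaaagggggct

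The FADS2 window held a GC box from -154 to -149 and a CCAAT box from 6 to 10 relative to the start. The SCD window held CCAAT boxes from -229 to -225 and from -186 to -182, and GC boxes from -33 to -28 and from -11 to -6. The window of the first FADS2 start, chr11:61815953-61816252, held neither. Of the 11 windows of the 10 genes, 6 held a CCAAT box, against 34.6% of 35116 RefSeq promoter windows, and 9 held a GC box, against 45.0%. The letters of a sterol element (TCACNCCAC, in 1.13% of all windows) and of the receptor repeats DR1 (in 0.310%) and DR4 (in 0.0199%) were in none of the 11. These matches on both strands describe letters within short windows. They are not binding sites, and the windows do not reach more distant elements.

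Most genes of 10 lists set around the members, 9 on lipid metabolism, its regulators and lipid peroxidation defence and 1 of neighbours on chromosome 11, lay within 1.5-fold. Over the whole table, 12865 of 13260 measured genes did as well. The lists together held 121 genes, of which 94 were measured, 15 were below the floor in both arrays and 12 had no probe set of their own. Of the 94, 3 were at least 1.5-fold lower with miR-130b and 0 were at least 1.5-fold higher, against 2.68% and 0.294% of all measured genes. Their median was -0.01. Leaving aside the chromosome 11 neighbours, 2 of 85 were at least 1.5-fold lower. Without probe sets ending in _s_at or _x_at, 0 of 68 genes of the 10 lists were 1.5-fold lower by the probe set with the highest mean. In that setting, 263 of 10175 genes in all were. An unsuffixed HACD2 probe set with a lower mean, 227741_at, differed by -1.29.

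A list of fatty acid synthesis enzymes, with their regulators and the citrate carrier, showed no gene beyond 1.5-fold among 10 measured, with a median of 0.05. Of all measured genes, 2.68% were lower and 0.294% higher by that rule. The citrate carrier gene SLC25A1 and the synthase gene FASN each differed by -0.22, and the mitochondrial synthase gene OXSM and the lipogenic regulator THRSP differed by 0.23 and 0.22. ACACA, the carboxylase that supplies malonyl-CoA to FASN and to the elongases, read 9.30 with miR-130b and 9.25 with the empty vector.

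The elongases act with a reductase, a dehydratase and a second reductase. All 4 measured genes of that cycle lay within 1.5-fold in the probe set with the highest mean, as did 12865 of 13260 genes in all. The median of the 4 was -0.09. HACD2, a dehydratase, differed by -0.41, at 9.78 with miR-130b and 10.19 with the empty vector. A second HACD2 probe set, 227741_at, read 5.46 with miR-130b and 6.74 with the empty vector, a difference of -1.29, so this gene's probe sets differed in size and agreed in sign. TECR differed by -0.25 and HSD17B12 by 0.19. HACD3 differed by 0.06, while its 3 other probe sets differed by -0.13, -0.12 and -0.06.

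Cytochrome b5 and its reductases pass electrons to the desaturases. None of 6 measured was beyond 1.5-fold, against 2.68% of all measured genes lower and 0.294% higher. The median of the 6 was -0.0011. CYB5R3 differed by -0.28 in the probe set with the highest mean and by -0.30 in its other. CYB5B differed by -0.25, but its 3 other probe sets differed by 0.26, 0.25 and 0.10. CYB5R4 and CYB5A differed by 0.19 and 0.10.

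Regulators that are known to act on desaturase genes showed 0 of 17 measured beyond 1.5-fold, against 2.68% of all measured genes lower and 0.294% higher. The median of the 17 was 0.05. SREBF1, which encodes SREBP-1, read 6.85 with miR-130b and 7.06 with the empty vector, a difference of -0.21. RXRA, the partner of fatty acid and oxysterol receptors, differed by -0.30 in its probe set with the highest mean and by 0.02 in the other. PPARA, the fatty acid receptor gene, differed by 0.30, with differences from -0.13 to 0.38 over its 6 measured probe sets, and the coactivator gene PPARGC1A by 0.30. MBTPS2, a protease that releases active SREBP, differed by 0.21. PPARG differed by -0.12 and was named after its value was seen.

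Uptake and activation genes of fatty acids, 13 measured, had a median of -0.01 and none beyond 1.5-fold. Over all measured genes, 12865 of 13260 lay within that line. ACBD3 differed by 0.29, or by -0.03 in its other probe set, and ACSL4, which prefers polyunsaturated acids, by 0.17. SLC27A5 differed by 0.16, or by -0.08 in its other probe set, and SLC27A1 by -0.16. ACSL1 differed by -0.09 in its probe set with the highest mean and by -0.46 in its other. CD36 and FABP4 were below the floor in both arrays.

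Peroxisomal shortening completes docosahexaenoic acid. Of 7 measured genes, ACOX3, an acyl-CoA oxidase, was at least 1.5-fold lower, at 7.42 with miR-130b and 8.14 with the empty vector. Its difference was -0.72, and its second probe set differed by -0.49. Of all measured genes, 2.68% were at least 1.5-fold lower. ACAA1, the thiolase, differed by -0.39 and -0.25 in its 2 probe sets, ACOT8 by -0.22 and ABCD3 by 0.13. The median was 0.05.

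A list of acyltransferases, lipases and eicosanoid enzymes, which handle acyl chains after desaturation, had 16 measured genes and a median of -0.08. Of these, 13 were below 0, against 41.9% of all measured genes. All of the 13 but DGAT2 and PNPLA3 differed by less than 0.202, the SD between probe sets of a gene. LPCAT2, counted among the 13, differed by -0.10 but by 0.45 in its other measured probe set. DGAT2, which makes triglyceride, was at least 1.5-fold lower, at 6.66 with miR-130b and 7.40 with the empty vector. The DGAT2 difference was -0.75, and its other probe set differed by -0.48. By the same rule 2.68% of all measured genes were lower. LPCAT4, a lysophospholipid acyltransferase, was the highest of this list at 0.42, although another measured probe set differed by -0.02. PNPLA3, a lipase linked to fatty liver, differed by -0.38. SOAT1, which esterifies cholesterol, differed by 0.30, 0.28 and 0.28 in its 3 probe sets.

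**Figure D4:**
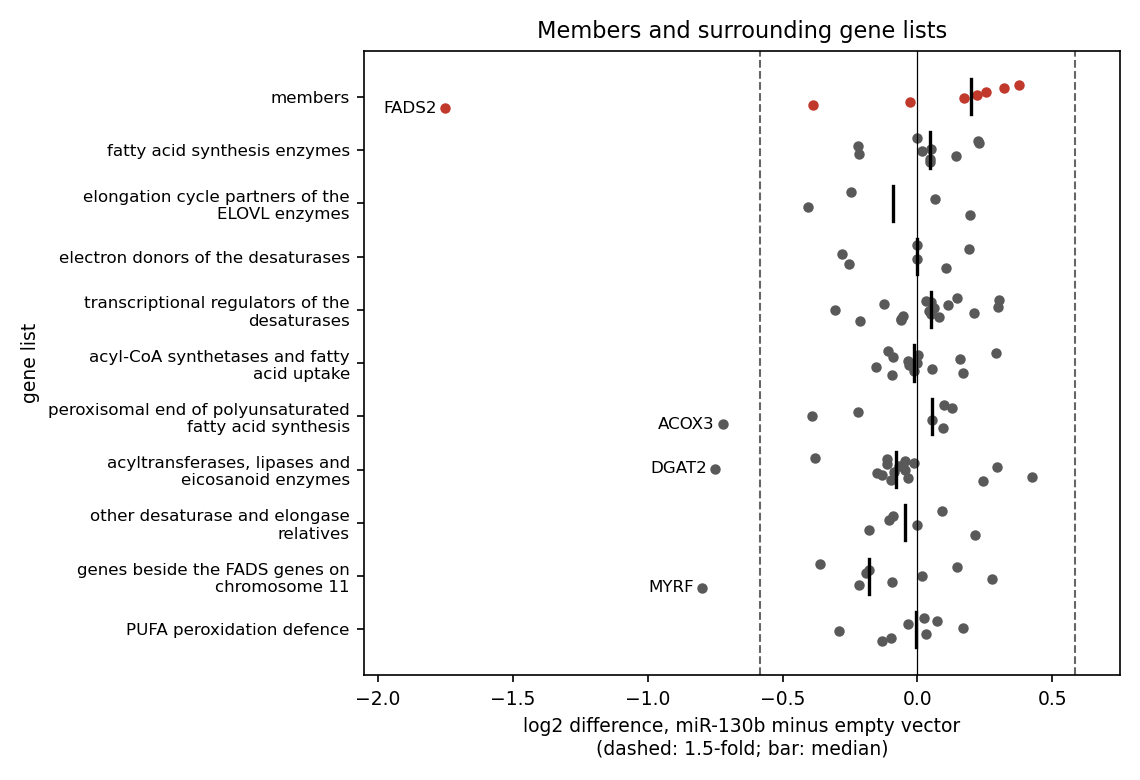
Log2 difference, miR-130b minus empty vector, of the 8 measured members and of the measured genes of 10 surrounding lists (1 point per gene, bars at medians, dashed lines at 1.5-fold). FADS2 at -1.75 lies farthest from 0. By the probe set with the highest mean, MYRF, DGAT2 and ACOX3 are the only listed genes beyond 1.5-fold.

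The FADS genes stand side by side on chromosome 11, and their neighbours were read as well. MYRF, a membrane-bound transcription factor gene 4 protein-coding genes before FADS2 in the RefSeq order, read 6.62 with miR-130b and 7.42 with the empty vector, a difference of -0.80. Its 2 further probe sets lay below the floor in both arrays and differed by -0.17 and -0.30. Between MYRF and FADS1, TMEM258 differed by -0.21 and FEN1, a replication nuclease, by -0.09 in its probe set with the highest mean and by -0.51 in its other. Beyond MYRF, DAGLA differed by -0.19 and SYT7 by -0.18. On the other side of FADS3, RAB3IL1 differed by 0.02, BEST1 by 0.28 and INCENP by 0.15. A dimmer measured BEST1 probe set differed by -0.14. Every measured gene from SYT7 to FADS3 in the RefSeq order was thus below 0, with MYRF and FADS2 beyond 1.5-fold. That stretch was marked off after the values were seen, and it includes FADS2, which was picked for its fall. By the probe set with the highest mean, SYT7, DAGLA and FEN1 differed by less than 0.202, the SD between probe sets of a gene. TMEM138, further away, differed by -0.36. Of the 9 measured neighbours listed, 6 had differences below 0, against 41.9% of all measured genes, and their median was -0.18.

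Relatives of the members that were not followed gave few values. ELOVL3 and ELOVL4 lay below the floor in both arrays, with ELOVL4 at 4.75 with miR-130b and 4.31 with the empty vector. DEGS1, the ceramide desaturase, differed by 0.21, DEGS2 by -0.18, SC5D by -0.10 and MSMO1 by -0.09. By the probe set with the highest mean, none of 6 measured was beyond 1.5-fold, against 2.68% of all measured genes lower and 0.294% higher. The median of the 6 was -0.04. FAXDC2 differed by 0 in its probe set with the highest mean. In another measured one, 220751_s_at, it read 4.69 with miR-130b and 5.33 with the empty vector, a difference of -0.64, beyond 1.5-fold. Genes that guard against peroxidation of polyunsaturated lipids, 8 measured, likewise had 0 beyond 1.5-fold and a median of -0.01. Within 1.5-fold lay 12865 of 13260 measured genes in all. SLC3A2, a subunit of the cystine carrier, differed by -0.29, ACSL4, given above, by 0.17, and GPX4, the lipid hydroperoxide reductase, by -0.13. AIFM2, an oxidoreductase of the plasma membrane, differed by -0.10, or by 0.06 in its other probe set.

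The 5 genes whose difference lay nearest to that of FADS2, compared over these 2 arrays only, were H2BC9, KITLG, COL2A1, NDRG4 and ANXA3. Their differences ran from -1.78 to -1.74. Of the 5, ANXA3 alone stayed above the floor with miR-130b, at 7.15 against 8.92 with the empty vector. With 2 arrays, likeness of pattern is no more than likeness of a single difference.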

How the data were processed

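The authors deposited log2 values, 1 for each of 54675 probe sets on either array. Per the submitters' processing notes they used RMA, with no version given; its settings, and which arrays entered it, are not stated in the labels. Column medians were 4.88 (miR-130b) and 4.89 (empty vector). The number of arrays limits the precision.

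GEO's platform annotation gave 41091 of 54613 non-control probe sets 1 symbol, 1801 several and 11721 none. Entrez identifiers of 41037 were found in RefSeq, which changed 0 symbols. Differences are miR-130b minus empty vector, from the deposited values. The floor of 4.88 and the 1.5-fold and 2-fold lines are rules of size, not tests. The SD of 0.202 was pooled over 6047 genes.

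The members and lists were chosen with earlier results of these data known. Named genes are all members, list genes beyond 1.5-fold or the 4 farthest from 0 in a list, the 5 nearest to FADS2 in difference, PROM1 and the ACTB and GAPDH control probe sets; other names were chosen after their values were seen. The computation was tested on simulated data with planted differences well beyond the 1.5-fold line. Differences near that line were not probed there. Tools were Python 3.11.15, numpy 2.4.6, pandas 2.3.3, statsmodels 0.14.6 and matplotlib 3.10.9.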

Additional observations from a re-analysis of the deposited data

How the results depend on the processing

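Results were recomputed without a floor, with the floor raised to the 75th percentile (6.98), with measured probe sets averaged, leaving out probe sets ending in _x_at or _s_at, loess centring (span 0.3) and with median centring. The mean of all probe sets without a floor was chosen after seeing the data. Without the suffixed probe sets FADS2 has no measured probe set, so it gives no value, and 0 of 6 members were lower by 1.5-fold. In that setting 0 of 68 list genes and 263 of 10175 genes in all were, against 3 of 94 and 356 of 13260. Fewer probe sets were read by construction. With the mean of all probe sets and no floor FADS2 stood at -0.93, SCD5 at 0.07, and 19 genes in all were at least 1.5-fold higher. Genes in all at least 1.5-fold lower and higher numbered 192 and 16 of 8277 with the higher floor, against 356 and 39 of 13260. Median centring left 25 higher. Of 55 recomputed values of summary results, 48 stayed within 0.202 on the log2 scale, or for counts within 1.5 times, of the value reported. For single members 46 of 47 did. Part of this was fixed in advance, because a changed floor left each member with a value read from the same probe set. The limit of 0.202 is also larger than some member differences, such as 0.17 for ELOVL6. Results that had no value in a setting were left out of both totals. These were FADS2 and SCD without the suffixed probe sets, and SCD5 with the higher floor. FADS2 ran from -1.79 to -1.75 wherever it was read from 202218_s_at. Over the alternatives FADS3 ran from -0.43 to -0.27, ELOVL7 from 0.34 to 0.38, ELOVL2 from 0.13 to 0.25, ELOVL5 from 0.09 to 0.22 and ELOVL6 from 0.07 to 0.17, while SCD ran from -0.06 to 0.05 and so took both signs. No paired analysis was possible because each condition has 1 array. Differences near the floor are compressed by residual background.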
